A study of Mus musculus with 8 samples.

Results

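The wild-type gravid uterus at gestational day 18 was described from 4 arrays of a series of 8 samples. The 4 arrays were those labelled wild-type, and no array of the other genotype entered any value. Each wild-type array held uterine RNA of 1 pregnant C57BL/6 mouse, labelled as female and 6 to 16 weeks old. The study's methods give the age as 8 to 16 weeks. The animals carried no engineered allele and received no agent. The study compared such uteri with those of Cox-1 KO mice, which deliver late, and the wild-type uteri are the baseline of that comparison. Fetuses, fetal membranes and placentas had been taken off before the RNA was made, and pieces of each uterus had been kept for sections. The RNA came from the remaining tissue, in which fewer cells of a type and less RNA per cell cannot be told apart. Placental transcripts, such as Tpbpa at 5604 to 18147, were still read on every array, and their source was not tested. With 1 group there was no test between groups, and each value is given as a mean ± SD over 4 mice with its coefficient of variation (CV, the SD as a percent of the mean). With 1 array per mouse, this spread holds both differences between mice and measurement noise, which cannot be told apart.

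The uterus late in pregnancy is a layered organ. The myometrium, a coat of smooth muscle, is held quiet through gestation by progesterone acting through its receptor and is made ready for labor when that hold is lost. At that time gap junction proteins, ion channels and receptors for oxytocin and prostaglandins couple and excite the muscle cells. Inside it lies the endometrium, with a lining and glands that secrete, a collagen-rich stroma, the decidua that stromal cells form around each implantation site, and macrophages and uterine natural killer cells. The arrays read transcripts of all these layers together.

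Values were MAS5 signals, which are probe brightness on a linear scale after each array was scaled to a common target. A signal of 100 served as the mark for a dim probe set, since the deposited table carried no detection calls. Of 28000 probe sets, 60 array controls were left out. The other 27940 included 23567 annotated to a single gene, and these covered 13119 genes, each represented by its brightest probe set. Array medians ran from 733 to 756. Between 92.8% and 94.0% of probe sets reached 100 on an array, and 91.6% of genes, 12011 of them, did so on all 4 arrays. Probe sets of the same gene could differ widely, and among the 6047 genes with 2 or more, the brightest was a median 3.23-fold above the dimmest. Ranks and percentiles below are therefore ranks of signal among the 13119 genes and not of transcript number.

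The array of replicate 4 stood apart from the others. Spearman correlations between arrays over all probe sets were 0.983 to 0.985 among replicates 1, 2 and 3, and 0.972 to 0.977 for pairs that held replicate 4. Most transcripts of a list for visceral yolk sac and fetal liver were far higher on that array than on the others. The list was chosen with earlier results of these data known, so its counts are not independent of them. Apoa1, which encodes the main protein of high-density lipoprotein, gave signals of 183, 481, 505 and 55059 on replicates 1 to 4. Afp, the fetal carrier protein alpha-fetoprotein, gave 1357, 2107, 2368 and 66979. All 4 probe sets of Apoa1 and all 3 of Afp had this pattern. Of the 21 measured genes of the list, 19 were highest on replicate 4, beside 23.0% of all genes, and the list's median signal was 138, 185, 234 and 7724 on the 4 arrays. Of 3 listed genes of fetal red cells 1 was in the table, and this globin gene, Hbb-y, read 2, 1, 5 and 26, highest on replicate 4 but below 100 on every array. The Y-linked gene Kdm5d read 1, 3, 59 and 5, Uty 73, 27, 53 and 61, and Eif2s3y 22, 49, 114 and 8. These were the only 3 of 6 listed Y-linked genes in the table. They were dim on replicate 4, and the only signal above 100 among them was on replicate 3. The X-linked gene Xist read 19409, 17964, 16152 and 15000 on its brightest probe set, but its other probe sets were not lowest on replicate 4. Replicate 1 stood low among bright genes, being the lowest array for 27.5% of all genes and for 44.8% of the 754 genes with a mean of 10000 or more. Counts below of genes lowest on replicate 1 are to be read beside these shares. What placed the yolk sac transcripts on 1 array was not tested, and results that rest on replicate 4 are given with and without it below.

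The brightest probe set of all matched several genes and is not named. Prap1, a proline-rich acidic protein known for its high level in the lining of the pregnant uterus, was the brightest named gene, with 66692, 85454, 74317 and 80732 on the 4 arrays (76799 ± 8138, CV 10.6%). Tmsb4x, the actin-binding peptide thymosin beta 4, followed at 72260 ± 1317. The matrix genes Sparc (69719 ± 3717), Col3a1 (67048 ± 1840), Dcn (66190 ± 3813) and Col1a2 (59436 ± 3896) were within the 16 brightest genes. So were the translation factor Eef1a1 (67381 ± 4318), smooth muscle actin Acta2 (66842 ± 4636), the lysosomal protease Ctsb (66286 ± 4640) and Guca2b (63136 ± 3159), which encodes the secreted peptide uroguanylin. Cuzd1, an estrogen-responsive gene of the uterine lining, held rank 25 at 53720 ± 3155. The other genes among the 25 brightest were Tpt1, Tpm2, Rps3a1, Rps29, Rpl41, Gpx3, Gsn, Lgals1, Itm2b, Actg1, Rpl38, Myl9, Tmsb10 and Srgn, with means from 54477 to 65841.

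Signal was concentrated in few probe sets. The brightest 1% held 18.6% of the summed signal, and the brightest 10% held 60.2%. The median gene had a mean of 1187, with quartiles of 444 and 2804, and 754 genes (5.75%) had a mean of 10000 or more. Cytosolic ribosomal protein genes supplied 27 of the 100 brightest genes while making up 0.351% of all genes, and their median CV was 4.58%. Actins and tropomyosins supplied 6 of the 100, and collagens 4. Of the 33 collagen genes measured, the median was at the 72.9th percentile.

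The gene lists were grouped by tissue compartment, and the median percentile of each group was taken on each array. Stromal genes had the highest, at the 86.3rd percentile ± 0.140 (SD over the 4 arrays, 66 of 68 listed genes measured). Muscle genes stood at 77.4 ± 1.30 (66 of 76), hormone response genes at 75.8 ± 1.25 (82 of 106), epithelial genes at 75.2 ± 3.75 (75 of 83) and decidual genes at 73.7 ± 0.663 (21 of 25). Immune genes stood at 34.9 ± 2.52 (95 of 130). These groups hold lists that differ widely, as the plot of lists by signal shows for muscle and immune genes.

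**Figure D1:**
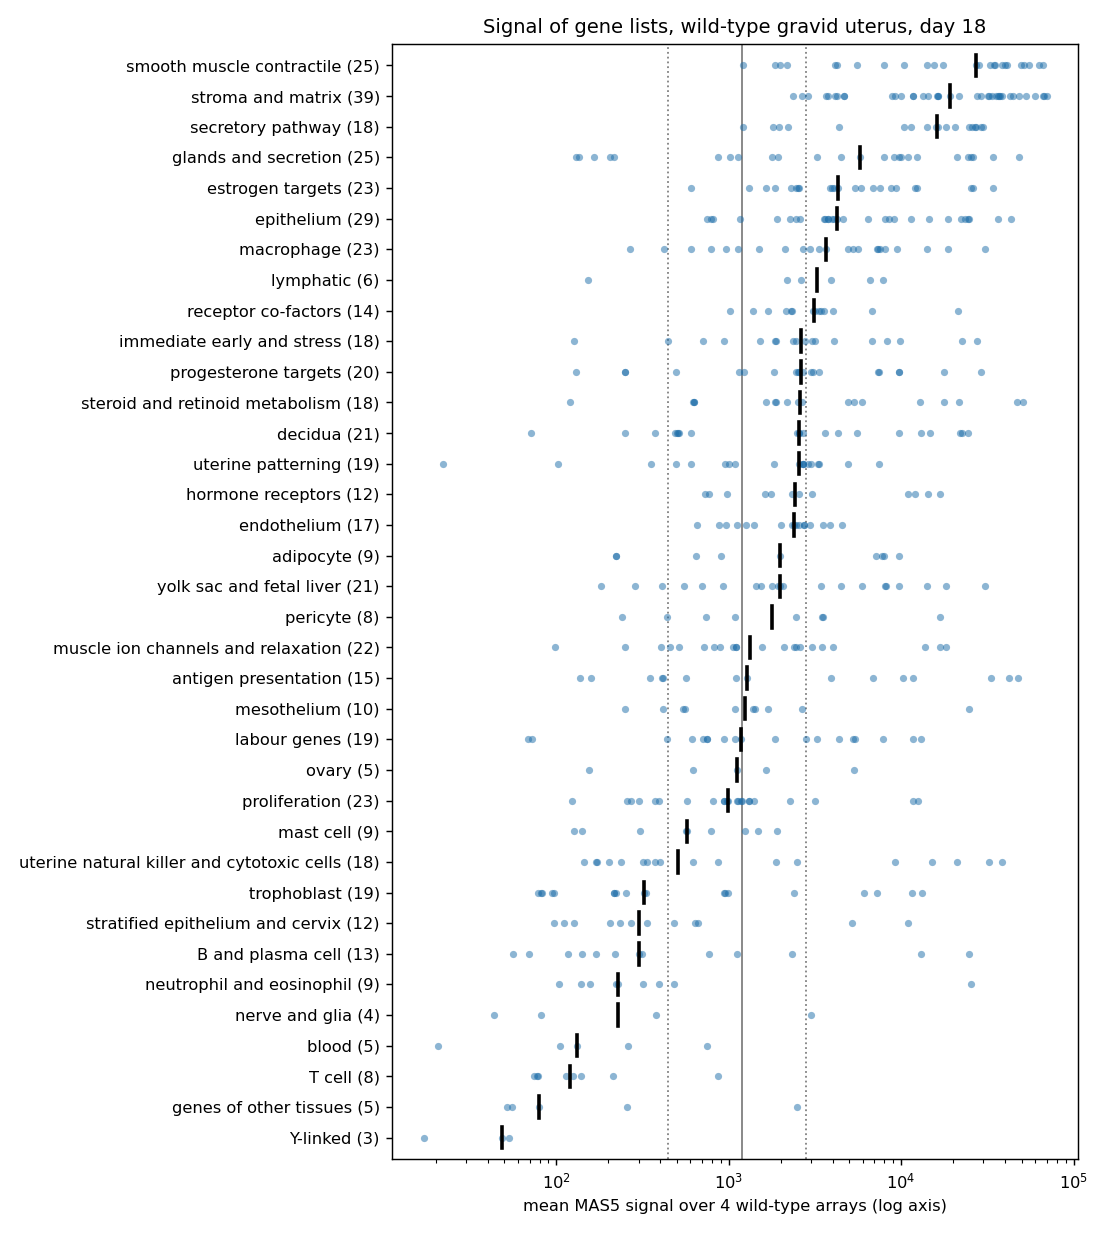
Mean MAS5 signal over the 4 wild-type arrays (log axis) for the measured genes of 36 lists, 1 point a gene, with the number of measured genes in brackets. Short black bars are list medians, the solid line is the median of all 13119 genes (1187), and the dotted lines are the quartiles (444 and 2804). The smooth muscle and stroma lists lie highest, and the lists for T cells, tissues outside the uterus and Y-linked genes lie lowest.

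Genes of the contractile apparatus of smooth muscle formed the list of highest median signal. Of 26 listed genes 25 were measured, and all 25 lay above 100 on every array, beside 91.6% of all genes. Of these, 18 were in the top 10% of genes by signal, and the list's median was at the 98.7th percentile. Acta2 read 59991, 69174, 68129 and 70074, and the enteric smooth muscle actin Actg2 read 46853, 54252, 52710 and 52811. Myl9, the regulatory myosin light chain, averaged 55164 ± 2857, and Tagln, an actin-binding protein of smooth muscle, averaged 49729 ± 3979. The smooth muscle myosin heavy chain Myh11 averaged 38189 ± 1860, the myosin light chain kinase Mylk 35108 ± 1388, calponin Cnn1 34389 ± 1116 and the intermediate filament gene Des 28141 ± 2285. Of the 25 genes, 15 had their lowest signal on replicate 1, beside 44.8% of genes with a mean of 10000 or more, and there the summed signal was 603078 against 658455 to 673082 on the others. The coactivator Myocd, which drives this program, averaged 1213 ± 86.1 and its partner Srf 2169 ± 182, at the 50.7th and 68.2nd percentiles. No gene of the list had a CV of 50% or more, beside 0.72% of genes with a mean of 1000 or more, a range that held the whole list.

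Srf binds a short element known as the CArG box, and the upstream sequence of the contractile genes was searched for it. Promoters were RefSeq sequences of GRCm38.p6, from 250 bases before to 50 after each annotated start, and 10535 of the 13119 genes had one. A CArG box, which reads the same on either strand, stood in the 250 bases upstream of 155 genes (1.47%) and of 4 of the 21 contractile genes with a promoter. In all promoters of the table the share was 1.47%. The box also stood upstream of 2 of 15 early response and stress genes (13.3%), and of 5.19% of the 100 brightest genes that had a promoter. Most other lists held none. A second search for TATAAA is given with the glands below, and 6 genes held both motifs. The stretches around the boxes are printed to show the element in the 4 contractile genes that held it. Myl6 lies at chr10:128493030-128493079 (minus strand), Myl9 at chr2:156775283-156775332 (plus), Srf at chr17:46556195-46556264 (minus) and Vcl at chr14:20929151-20929200 (plus). Sequences run 5′ to 3′ on the gene's strand with the boxes in capitals, and Srf held 2.
Myl6: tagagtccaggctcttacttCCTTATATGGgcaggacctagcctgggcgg
Myl9: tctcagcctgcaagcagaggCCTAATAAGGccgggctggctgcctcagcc
Srf: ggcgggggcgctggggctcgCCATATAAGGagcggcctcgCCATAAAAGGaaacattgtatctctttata
Vcl: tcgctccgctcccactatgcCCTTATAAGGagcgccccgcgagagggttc
Their signals averaged 4107 ± 305 for the light chain Myl6, 55164 ± 2857 for Myl9, 2169 ± 182 for Srf and 17521 ± 807 for vinculin, Vcl. A match shows only that these letters are present, and bound factor was not measured.

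Genes that set the excitability of the muscle lay lower. Of 22 measured genes for ion channels, pumps and relaxation, 3 were in the top 10% and 11 were below the median gene. The highest were Rgs2 (18314 ± 3351) and Rgs5 (16734 ± 1188), which shorten signals of G protein coupled receptors, and the calcium pump Atp2a2 (13761 ± 395). The large-conductance potassium channel had its pore gene Kcnma1 at 2551, 2057, 2072 and 1701 and its accessory subunit Kcnmb1 at 2927, 3176, 2994 and 3007. The L-type calcium channel gene Cacna1c averaged 894 ± 64.8. Phospholamban, Pln, a brake on the calcium pump, read 889 on replicate 1 and 330 to 426 on the other arrays.

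Genes known for their part in labor were spread across the scale. Connexin 43, Gja1, the gap junction protein that couples myometrial cells, read 11851, 13401, 13089 and 13795 (13034 ± 840), within the top 10% of genes. Its 6 probe sets had means from 498 to 13034. The oxytocin receptor Oxtr read 1167, 914, 1350 and 926 (1089 ± 209), at the 47.4th percentile, and the arrays differed by up to 1.48-fold. The receptor for prostaglandin F2α, Ptgfr, read 64, 64, 85 and 77, below 100 on every array on its only probe set in the deposited table. Ptgs2, the inducible cyclooxygenase, read 607, 766, 770 and 696 (710 ± 76.5). Ptgs1, which encodes Cox-1 itself, was not analysed here.

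The prostaglandin pathway was measured at several steps. Pla2g4a, the phospholipase that frees arachidonic acid, averaged 4358 ± 175. Ptgis, which makes prostacyclin, averaged 7859 ± 162, while the prostaglandin E synthase Ptges averaged 440 ± 38.2. Among receptors for prostaglandin E, Ptger4 averaged 5402 ± 252 and Ptger3 1855 ± 351, Ptger2 612 ± 119 and Ptger1 69 ± 32.8. Hpgd, the enzyme that inactivates prostaglandins, read 2572, 2856, 2809 and 2999 (2809 ± 177), and the uptake carrier Slco2a1 read 2345, 3098, 3631 and 3935. The contraction repressors Zeb1 and Zeb2, known to hold back genes of labor under progesterone, averaged 5286 ± 453 and 1185 ± 64.8. Of the 19 measured labor genes 17 were at 100 or more on all arrays, close to the 91.6% of all genes, 3 were in the top 10%, and 10 were below the median gene.

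**Figure D2:**
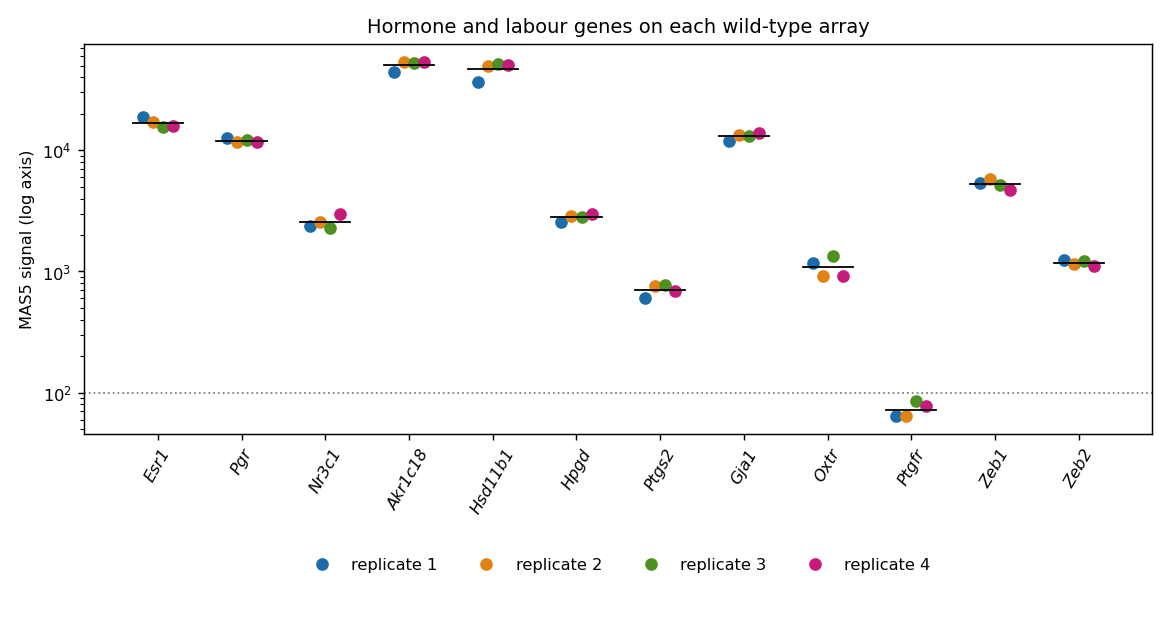
MAS5 signal (log axis) of 12 receptor, steroid enzyme, prostaglandin and labor genes in each of the 4 wild-type uteri, with the mean as a black line and the dotted line at 100. Akr1c18 and Hsd11b1 are lower on replicate 1 than on the others, Oxtr lies between 914 and 1350, and Ptgfr is below 100 on all 4 arrays.

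The receptors for estrogen and progesterone were both in the top 10% of genes. The estrogen receptor gene Esr1 read 18670, 17284, 15654 and 15842 (16863 ± 1408, CV 8.35%), at rank 369. The progesterone receptor gene Pgr read 12655, 11642, 12155 and 11670 (12031 ± 478, CV 3.98%), at rank 605. Each of these had dimmer probe sets too, down to 799 for Esr1 and 318 for Pgr. The glucocorticoid receptor Nr3c1 averaged 2546 ± 312 and the membrane-associated Pgrmc1 14381 ± 290. Ghr, the growth hormone receptor, read 9563, 9554, 9853 and 14671, and Vdr, the vitamin D receptor, read 386, 509, 686 and 1317, both with the top value on replicate 4. Rxfp1, the receptor for relaxin, averaged 976 ± 280. Of 20 listed receptors 12 were measured, and Esr2 and Prlr were not analysed here.

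Enzymes of steroid metabolism included some of the brightest genes of the tissue. Akr1c18, the 20-alpha-hydroxysteroid dehydrogenase that inactivates progesterone, read 44423, 53522, 52274 and 53846 (51016 ± 4447), at rank 37. Hsd11b1, which regenerates active glucocorticoid, read 36310, 49176, 51696 and 50699, at rank 51, and Hsd11b2, which inactivates it, read 20935, 17225, 16907 and 15824. Replicate 1 was lowest for the first pair and highest for Hsd11b2. Aldh1a2, which makes retinoic acid, averaged 12817 ± 1059. Sult1e1, which inactivates estrogen by sulfation, differed more, at 546, 3178, 3227 and 1798. Hsd3b1, a step in progesterone synthesis, read 104, 134 and 143 on replicates 1 to 3 and 6242 on replicate 4, so that its mean of 1656 became 127 without that array. Cyp11a1, the first enzyme of steroid synthesis, read 4909, 5168, 4908 and 6380.

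Targets of the steroid receptors were measured next. Among progesterone targets, 20 of 25 were measured, with a median at the 73.3rd percentile and 6 in the top 10%. Sgk1, a kinase of salt transport, averaged 29146 ± 2890, and Hoxa10, a homeobox gene of uterine identity, averaged 7396 ± 402. Ihh, the lining's hedgehog signal of early pregnancy, read 76, 89, 150 and 207, and Bmp2 read 274, 208, 351 and 167. Among estrogen targets, 23 of 24 were measured, with a median at the 85.0th percentile and 9 in the top 10%. Lactotransferrin, Ltf, read 10620, 27265, 36265 and 27077, and lipocalin 2, Lcn2, read 19899, 37430, 42135 and 36014. For both, replicate 1 was lowest and replicate 3 highest. The growth factor Igf1 ran the other way, at 13060, 8110, 7497 and 6143, with replicate 1 highest. Greb1 (2525 ± 84.5) and Ccnd1 (5834 ± 152), also estrogen targets, differed little between arrays, with CVs of 3.35% and 2.60%. The 14 measured receptor co-factors had a median CV of 7.45%, beside 7.35% for all genes with a mean of 1000 or more, and the chaperone Hsp90aa1 was highest at 21470 ± 1387.

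Stroma and matrix genes formed the list of next-highest median signal, at the 97.7th percentile, with 30 of 39 in the top 10%. Fibrillar collagens led, with Col3a1 at 65612, 69485, 65639 and 67455. Periostin, Postn, averaged 53270 ± 5341, fibronectin Fn1 44380 ± 3435 and the calcification inhibitor Mgp 48443 ± 2182. The fibroblast receptor Pdgfra averaged 11649 ± 1098. Matrix breakdown and its inhibitors were represented by Mmp14 (13331 ± 1619), Mmp2 (9239 ± 855) and Timp2 (36543 ± 1944). Proteins of the secretory pathway, which fold and export collagen and gland products, had a median at the 96.9th percentile, led by the collagen chaperone Serpinh1 (29836 ± 1044) and P4hb (29172 ± 796).

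Genes of uterine identity were measured as a check of the labelled tissue. Hoxa10 read 7934, 6961, 7326 and 7361, and Hoxa11 read 5500, 4518, 4828 and 4767. Hand2, a progesterone-driven stromal factor, read 2718, 2734, 2662 and 2624 (CV 1.89%). Hoxa13, the homeobox gene of cervix and vagina, read 79, 90, 116 and 127.

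Decidual genes were bright in part. Sfrp4, a secreted Wnt antagonist, averaged 24557 ± 1845, the proteases Htra3 and Htra1 averaged 21963 ± 1849 and 14759 ± 369, and follistatin, Fst, averaged 9757 ± 1325. The decidual prolactin Prl8a2 read 15065, 26846, 24395 and 23379 (22421 ± 5116), with replicate 1 lowest. Factors of the onset of decidualization were dimmer, with Wnt4 at 601 ± 140, Hbegf at 512 ± 80.9, Bmp2 at 250 ± 80.5 and Ereg at 71.3 ± 15.5. Of the 21 genes measured, 20 reached 100 on all arrays, beside 91.6% of all genes. Replicate 1 was lowest for 12 of the 21, beside 27.5% of all genes and 44.8% of genes with a mean of 10000 or more.

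The lining epithelium was represented by 29 of 30 listed genes, and its median lay at the 84.8th percentile. Prom1 averaged 43134 ± 3520 and the secreted inhibitor Wfdc2 36196 ± 4889. The keratins of simple epithelium Krt8, Krt18 and Krt19 averaged 23482 ± 3418, 24457 ± 2963 and 24702 ± 2363. Krt8 read 18397 on replicate 1 and 24726 to 25761 on the others. Of the 29 genes, 21 were lowest on replicate 1, beside 27.5% of all genes and 44.8% of genes with a mean of 10000 or more. In the stroma and matrix list 25 of 39 were lowest there too. The adhesion molecule Epcam read 10846, 12492, 10840 and 11405.

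Products of the glands and the secreting lining had a median at the 86.5th percentile and a larger spread, with a median CV of 18.4% where the epithelium list had 9.30%. Klk1, a kallikrein, read 59773, 49768, 42019 and 40405. Sprr2f, a small proline-rich protein, read 21359, 29570, 33270 and 20368. The calcium-binding protein S100g averaged 24266 ± 2004 and the water channel Aqp8 21033 ± 1058, both with a CV under 10%. The implantation proteases Prss29 and Prss28 read 4838, 3361, 2323 and 2463, and 1451, 828, 573 and 614, so that both were highest on replicate 1. Factors of early pregnancy were low, with Lif at 215 ± 18.0 and Foxa2, the gland factor, at 76, 94, 116 and 378.

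A TATA element, spelled TATAAA on the gene's strand with its first base 40 to 26 bases before the start, was found for 6 of the 19 gland genes with a promoter. Among all genes on the arrays with a promoter the share was 1.83%, and among all promoters in the table it was 1.87%. The element was not particular to the gland list. It was found for 5 of 19 estrogen targets (26.3%), which also include Sprr2f, and for 2 of 7 mast cell genes (28.6%). Shares in other lists varied, as 0 of 17 macrophage genes, 1 of 19 epithelium genes (5.26%) and 3 of 27 stroma and matrix genes (11.1%). The element was also found for 2 of 14 trophoblast genes (14.3%), 2 of 8 neutrophil and eosinophil genes (25%) and 1 of 3 nerve and glia genes (33.3%). The 6 stretches, which end at the last base before the annotated start, are shown because the share in the gland list was 31.6%. They are Cxcl15 at chr5:90794487-90794533 (plus), Muc4 at chr16:32735830-32735885 (plus), Prss28 at chr17:25308597-25308645 (plus), Prss29 at chr17:25318605-25318653 (plus), Slc26a4 at chr12:31559985-31560035 (minus) and Sprr2f at chr3:92365138-92365186 (plus). Capitals mark TATAAA.
Cxcl15: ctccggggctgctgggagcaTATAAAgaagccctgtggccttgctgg
Muc4: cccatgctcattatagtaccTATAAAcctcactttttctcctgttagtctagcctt
Prss28: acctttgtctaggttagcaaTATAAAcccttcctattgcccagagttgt
Prss29: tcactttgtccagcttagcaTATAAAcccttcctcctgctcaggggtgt
Slc26a4: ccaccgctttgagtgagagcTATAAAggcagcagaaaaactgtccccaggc
Sprr2f: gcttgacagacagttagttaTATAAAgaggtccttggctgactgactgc
Signals of these 6 genes ran from 135 ± 38.2 for Cxcl15 and 867 ± 405 for Prss28 through 1130 ± 133 for Muc4, 1937 ± 444 for Slc26a4 and 3246 ± 1157 for Prss29 to 26142 ± 6292 for Sprr2f. The element was thus present at both ends of the signal scale within the list.

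Immune genes divided into bright and dim lists. Macrophage genes had a median at the 81.3rd percentile, and all 23 measured were at 100 or more on every array, beside 91.6% of all genes. The receptor for colony stimulating factor 1, Csf1r, read 12612, 14415, 14587 and 14527. Complement C1qa, C1qb and C1qc averaged 8032 ± 460, 9401 ± 206 and 7245 ± 335, and the mannose receptor Mrc1 averaged 7361 ± 322. The list's median CV was 6.78%. The 2 lysozyme genes, Lyz1 (30481 ± 630) and Lyz2 (18669 ± 531), are close relatives whose probes may share transcripts.

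Granzymes were the brightest genes of the uterine natural killer list, but the list's median was at the 28.7th percentile. Of 24 listed genes 18 were measured, and 11 of these were below the median gene. Gzmd read 39861, 37471, 40293 and 36117, at rank 80. Gzmg, Gzmf, Gzme and Gzmc averaged 32355 ± 4375, 21204 ± 3004, 15183 ± 1470 and 9180 ± 1486. These 5 genes lie in a family of near copies, so probes for the members may not tell them apart. Perforin, Prf1, averaged 1891 ± 258 and Gzmb 2487 ± 586, whereas Gzma read 256, 207, 193 and 20. Of the 18 genes measured, 15 were lowest on replicate 4, beside 28.2% of all genes. Of 20 listed T cell genes only 8 were measured, and Cd3e, Cd4 and Lck were among the 12 not in the table. None of the 8 was in the top 10%, and their median was at the 5.96th percentile. Zap70 was the highest of them, at 635, 465, 1043 and 1342.

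Among antibody genes, Igha, the constant region of immunoglobulin A, read 23896, 6517, 13407 and 8457. Jchain, which joins immunoglobulin A into dimers, read 5012, 889, 2058 and 1302. On both, replicate 1 was highest and replicate 2 lowest. The B cell surface gene Ms4a1 read 55, 52, 37 and 80. Presentation of antigen was bright for class I, with B2m at 47853 ± 3000, and for class II the invariant chain Cd74 read 13860, 10653, 8688 and 7850 and H2-Aa 14867, 12303, 10624 and 9311. Mast cell proteases were dimmer, with Cpa3 at 1897 ± 440 and Cma1 at 1481 ± 516. The granulocyte genes S100a8, S100a9 and Mpo averaged 393 ± 123, 138 ± 25.6 and 157 ± 28.8. The highest gene of that list was Ltf, which the uterine lining also makes.

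Endothelial genes had a median at the 70.6th percentile, and none of the 17 measured was in the top 10%. The brightest, the apelin receptor Aplnr, read 6238, 3800, 4224 and 3946, highest on replicate 1. Plvap averaged 3888 ± 129, Pecam1, a junction protein of endothelium, 3527 ± 155 and Eng 2976 ± 494. All 17 were at 100 or more on every array, beside 91.6% of all genes. The lymphatic genes Lyve1 and Pdpn averaged 7838 ± 638 and 6636 ± 579, although Prox1 read only 127, 87, 227 and 168. Probe sets that match several globin genes were bright. The brightest of these, for the alpha chains, read 41764, 54037, 56456 and 60370, and the probe set for the beta chains read 32611, 39765, 46155 and 50041, with replicate 1 lowest on each. Of 40 genes of tissues outside the uterus, 5 were in the table and 4 had a mean of 256 or less. The exception was Scgb1a1, uteroglobin, at 2494 ± 194, a secreted protein also known from the uterus.

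Spread between arrays was smaller at higher signal. The median CV was 40.1% for probe sets with a mean under 100, 22.1% from 100 to 300, 8.66% from 1000 to 3000 and 4.84% at 30000 or more. Among the 11827 probe sets with a mean of 1000 or more, the median CV was 7.57%, and it was 7.14% without replicate 4. A CV of 50% or more was found for 87 of them (0.736%), and for 49 without replicate 4. Of the 87, 56 were highest on replicate 4, 14 on replicate 2, 13 on replicate 1 and 4 on replicate 3. A CV of 100% or more was found for 41 with all arrays and for 2 without replicate 4.

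**Figure D3:**
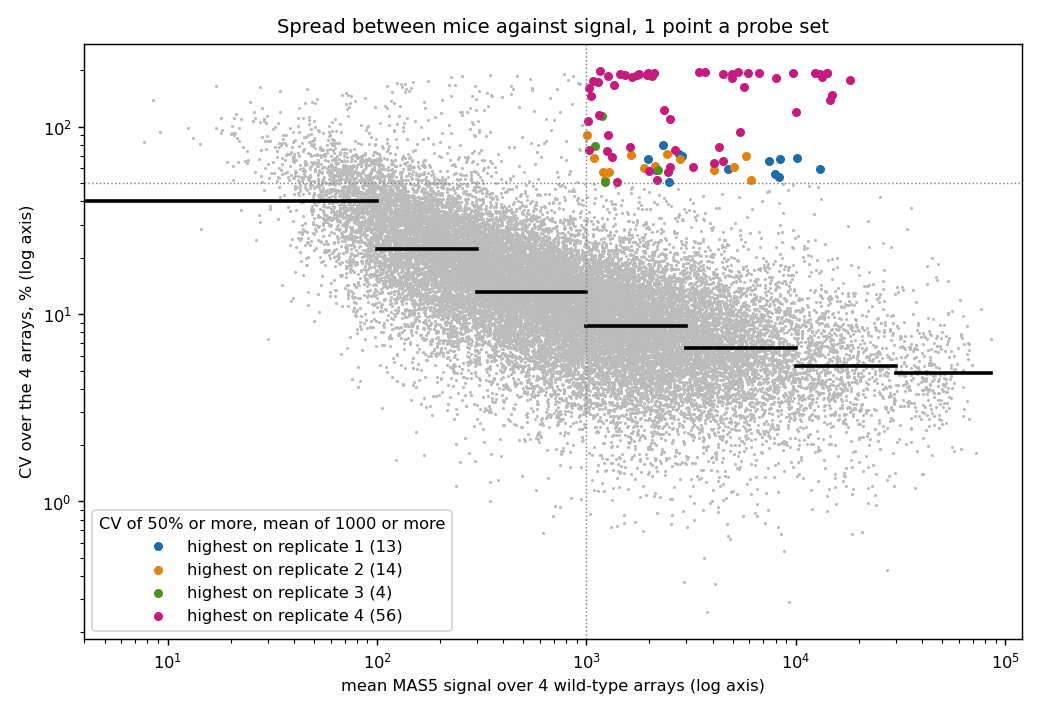
CV over the 4 wild-type arrays (%, log axis) against mean MAS5 signal (log axis) for each probe set, with black bars for the median CV in 7 ranges of signal. Coloured points have a mean of 1000 or more and a CV of 50% or more, coloured by the array with the highest signal. The medians fall from 40.1% to 4.84%, and the points near 200% are all highest on replicate 4.

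The lowest CVs were ranked over probe sets with a mean of 1000 or more, each gene once. A probe set of Cdk4, a kinase of the cell cycle, read 3773, 3777, 3785 and 3795 (CV 0.257%), although the CV was 6.63% on the gene's brightest probe set. A probe set of Eif5a, a translation factor, read 9317, 9286, 9318 and 9352 (CV 0.289%), and the brightest of that gene had a CV of 4.94%. The others of the 10 lowest were Rrp1, Rhbdf1, Bicd2, Pomp, Sae1, Arhgef12, Sar1b and Psma3, with CVs from 0.362% to 0.673%. Of these only Arhgef12 was not on its brightest probe set, which had a CV of 3.39%. Dimmer probe sets of the others could be less even, as 1 of Rrp1 had a CV of 5.69% and 1 of Sae1 10.5%. These CVs were picked as the lowest of all probe sets in this range. The 100 most even genes with a mean of 1000 or more were then taken, here by the brightest probe set of a gene. In their 300-base promoters the median number of CG dinucleotides was 24.5, and it was 5 for the 100 least even. Without replicate 4 it was 6 for the 100 least even genes. Over all genes of any signal it was 20, and no value was taken for all genes with a mean of 1000 or more. Low numbers also occurred in an even list, as the macrophage list had a median of 3 and a median CV of 6.78%.

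The least even genes included many of the yolk sac list. Of the 7225 genes with a mean of 1000 or more, 52 (0.72%) had a CV of 50% or more, and 29 did without replicate 4. Replicate 4 was highest for 35 of the 52. Over probe sets of that range, each gene once, the 10 highest CVs were for Apom, Fgb, Apoa4, Ttr, Apoa1, Apob, Fgg, Serpina1b, Spink1 and Spp2, from 190% to 199%, all highest on replicate 4. Most encode lipid carriers or blood proteins made by liver and yolk sac. Apob read 124, 144, 242 and 23103, and the fibrinogen gene Fgb read 66, 65, 11 and 13601. The yolk sac list was chosen with earlier results of these data known, so its counts only describe these arrays. Of the 21 measured genes of the list, 17 had a CV of 50% or more, beside 3.7% of all genes. Without replicate 4 this held for 5, beside 3.21% of all genes, and the median of the list's mean signals went from 1975 to 189. Some members were not specific to that array, such as Rbp4, a retinol carrier also made by the uterus, at 26827, 30136, 32440 and 32401.

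**Figure D4:**
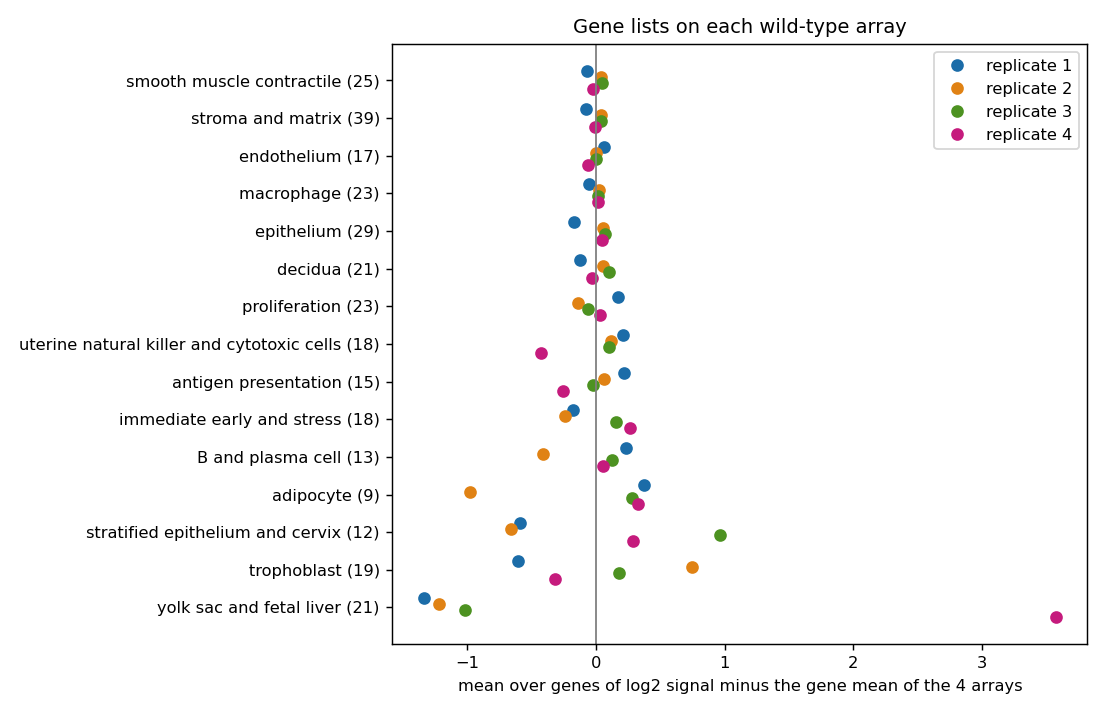
Position of each wild-type array for 15 gene lists, as the mean over the list's genes of log2 signal minus the gene's own mean over the 4 arrays, with the number of genes in brackets. Arrays lie within 0.1 for muscle, stroma, endothelium and macrophage genes, and replicate 4 lies at 3.57 for the yolk sac and fetal liver list.

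Other lists also differed between arrays. Trophoblast genes were higher on replicates 2 and 3 than on replicate 1 for the 4 brightest members, of which Tpbpa, of the spongiotrophoblast, read 5604, 15962, 18147 and 13103 and the placental prolactin Prl2a1 read 3800, 15562, 15571 and 11205. Of the 19 trophoblast genes, 12 were highest on replicate 2, beside 3152 of the 13119 genes, and on the log2 scale the list's mean deviation was -0.61, 0.74, 0.18 and -0.32. Prl2a1 and Prl8a2 were both lowest on replicate 1. Genes of stratified epithelium, as in the cervix, were highest on replicate 3 for 6 of 12, beside 22.8% of all genes. The list's brightest members peaked elsewhere, as Sbsn read 7929, 12810, 11801 and 11252 and Perp 4120, 5165, 5674 and 5853. The basal keratins Krt5 and Krt15 read 202, 157, 1663 and 544, and 10, 7, 822 and 102, and the basal factor Trp63 read 68, 43, 229 and 106. The list's mean deviation was -0.59, -0.66, 0.97 and 0.29.

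Fat cell genes were lowest on replicate 2 for 7 of 9, beside 22.4% of all genes. Adipoq, the hormone adiponectin, read 3525, 267, 2208 and 1906, and Car3, carbonic anhydrase 3, read 12284, 1748, 8218 and 9647. The list's deviation was -0.98 on replicate 2 and 0.28 to 0.37 on the others. Of 18 early response and stress genes, 10 were highest on replicate 4, beside 23.0% of all genes, and 5 on replicate 3, beside 22.8%. Fos read 2264, 1781, 4720 and 7441 and Egr1 1701, 1088, 2739 and 4295, whereas Jun, at 9639, 6865, 8021 and 8597, and Myc were highest on replicate 1. Proliferation genes were highest on replicate 1 for 17 of 23, beside 30.2% of all genes, although the deviation there was only 0.17. What made the arrays differ in these lists was not tested.

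**Figure D5:**
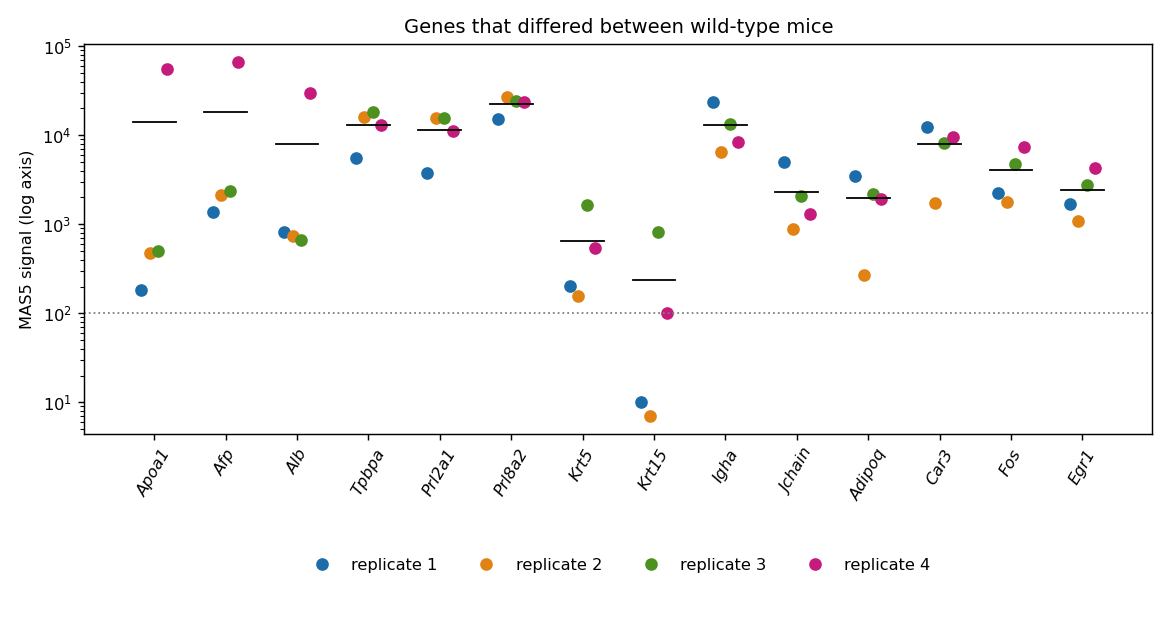
MAS5 signal (log axis) in each wild-type uterus for 14 genes that differed between arrays, with the mean as a black line and the dotted line at 100. Apoa1, Afp and Alb are high on replicate 4 alone, Tpbpa and Prl2a1 are lowest on replicate 1, Krt5 and Krt15 are highest on replicate 3, and Adipoq is lowest on replicate 2.

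The genes of highest CV over replicates 1 to 3 were then listed. Clca1, a secreted protein of mucous cells, read 426, 115 and 3101, and Olfm4, a secreted glycoprotein of epithelium, read 324, 498 and 2210. Psg16, a pregnancy-specific glycoprotein, read 333, 2533 and 365. Adipoq and Jchain, given above, were the other members of the top 5. Replicate 3 was thus highest for the first pair and replicate 2 for Psg16. A placental prolactin further down the list, Prl8a9, read 960, 5346 and 2933, also highest on replicate 2.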

How the data were processed

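Total uterine RNA of 1 mouse per array was extracted with Trizol and RNeasy and hybridised to Affymetrix mouse 430 2.0 arrays. The authors made the deposited intensity values with MAS5, scaling each array to a target of 1000, and the deposited table held 28000 probe sets. How these were chosen is not given in the sources used here. The study's own analysis kept only genes called present in a set share of samples, and whether that filter shaped the table is not stated. The 4 columns of Cox-1 KO samples were not used. No further normalization was applied.

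Symbols came from GEO's platform annotation, which may be old: 23567 probe sets had 1 gene symbol, 653 several and 3720 none. Probe sets with several symbols were given no gene name and used only for globins, described by chain. Each gene was placed on the probe set of highest mean over the 4 arrays. Mean, SD, CV and rank were computed with Python 3.11.15, pandas 2.3.3 and numpy 2.4.6, and the code was checked on simulated data. CVs were ranked over probe sets with means of 1000 or more, each gene once, so a gene could be ranked on another than its brightest probe set. The members and gene lists were chosen with earlier results of these data known. Genes were named by rule: the 25 brightest, up to 4 brightest of each list, the 10 highest and 10 lowest CVs, and a set of uterine and hormone genes given by name. Other members of the lists and the genes of highest CV over replicates 1 to 3 were named after their values were seen. Promoter sequences came from RefSeq (GRCm38.p6). For arrays, the number of mice limits the precision, and the study's methods say that samples were processed side by side in balanced sets but not which mice formed a set. Alternatives were other thresholds, floors, normalizations and probe set rules, and leaving out each array.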

Additional observations from a re-analysis of the deposited data

Results flagged for a closer look

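For 188 named genes and 37 list medians, the distance of the highest or lowest array to its nearest neighbour was set against the range of the 4 arrays on the log2 scale. A value was taken as far from the others where that ratio exceeded Dixon's critical value for 4 values, which chance alone passes in about 1 of 20 groups. In all 20 passed, 10 of them high on replicate 4 and 7 low on replicate 1. The named genes include the 10 of highest CV, so this tilt follows in part from how they were named. Among all 7225 genes with a mean of 1000 or more, 409 (5.66%) passed, 59 of them high and 60 low on replicate 4.

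On replicate 4 the high values were 66979 for Afp, 37669 for Ttr, 23103 for Apob, 17386 for Apoa4, 8237 for Serpina1b, 6922 for Spink1 and 6717 for Spp2, genes known from yolk sac and liver. The median signal of the list for yolk sac and fetal liver was 7724 on that array. Hsd3b1, of steroid synthesis, read 6242 and the growth hormone receptor Ghr 14671.

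On replicate 1 the low values were 44423 for Akr1c18, 36310 for Hsd11b1, 18397 for Krt8, 12612 for Csf1r, 6343 for the co-chaperone Stub1 and 211 for S100a8. The median signal of the mesothelium list was 978.5 there. The fat cell gene Fabp4 read 6448 on replicate 2, below the other arrays. On replicate 3 the endothelial gene Plvap was low at 3695 and the potassium channel subunit gene Abcc9 high at 4158.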

How the results depend on the processing

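The results below were recomputed: the number of probe sets at 100 or more on all arrays, the 100 brightest, the median CV, the lowest rank correlation between arrays and the median percentile of each tissue group. Of 80 values under alternatives, 68 moved by less than the spread between arrays. The median CV of 7.57% became 11.4% for means of 100 or more and 12.01% with no floor, and leaving out 1 array in turn gave 6.38% (without replicate 1) to 7.46%. The lowest rank correlation ranged from 0.972 to 0.983, the latter without replicate 4. With a gene taken as the average of its probe sets, the median percentile was 74.7 for muscle, 89.5 for stromal, 65.6 for decidual and 38.5 for immune genes. With probe sets of the _s_at and _x_at kinds left out it was 72.4 for muscle, 87.0 for stromal, 75.2 for decidual and 77.9 for hormone response genes. The cause was not tested. Alternatives for list medians and named genes were added after the data were seen. Of 188 named genes, leaving out replicate 4 moved the mean of 14 by over 1.5 times (Afp, Apoa1, Ttr, Apob, Apoa4, Fgb, Serpina1b, Fgg, Spink1, Spp2, Hsd3b1, Apom, Foxa2 and Hbb-y), and the median of the ovary list from 1117 to 662. Leaving out replicate 3 moved Krt5, Eif2s3y and Kdm5d, and replicate 1 moved Jchain. No paired analysis was possible because 1 group was described and no test was made. Values near a signal of 100 lie in the range where the median CV exceeded 20%.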

Other observations

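The following are baseline values in the wild-type uterus of genes that the study singled out. They were chosen from the study's text, which picked them from these samples, and its Klk6 is Klk1 in RefSeq, given above. Tnni2, a troponin of fast skeletal muscle, read 2312, 2123, 1829 and 2134 (2100 ± 200). Tnfrsf9, a costimulatory receptor of lymphocytes, read 1573, 2489, 3050 and 1929 (2260 ± 648). Arg1, which splits arginine, read 413, 406, 545 and 434 (450 ± 64.8), at the 25.3rd percentile. Atp8a1, a phospholipid carrier of membranes, read 9131, 7031, 5240 and 5337 (6685 ± 1826), highest on replicate 1. The chloride channel gene Cftr averaged 1018 ± 122 and Gem, a small GTP-binding protein, 723 ± 130. Of these genes and Klk1, Gzme and Jchain, described above, Jchain alone had a CV of 50% or more (80.4%).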
